A study of Mus musculus with 6 samples.

Results

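The genes described are the embryonic globins Hbb-bh1, Hbb-y and Hba-x and 6 further genes of primitive erythroid cells, Alas2, Slc4a1, Hemgn, Gata1, Klf1 and Epor. They were taken as all probe sets of an Affymetrix mouse 430A array that the platform annotation pairs with 1 of these 9 symbols and with no other gene. This gave 15 of the 22626 probe sets tested, 7 of them for the globins and 8 for the other genes, and every one of the 9 genes was measured. RNA came from the hindbrain of mouse embryos at stage E10.5, from rhombomere 4, where Hoxb1 is known to set segment identity. Per the labels the tissue also held the branchial arches around it. Wild-type embryos were compared with Hoxb1 mutant embryos, 3 arrays each, and every array carried RNA from a separate pool of segments from several embryos. The sources used here do not give the mutant allele, the strain, the sex of the embryos or their number per pool. The labels name no treatment. The submitters state that the pools are independent biological replicates.

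At this stage of mouse development the red cells in the circulation are mainly primitive erythroid cells, which arise in the yolk sac, enter the blood with their nucleus and fill with embryonic haemoglobin. Hbb-bh1 and Hbb-y encode beta-like chains and lie in the beta-globin cluster, and Hba-x encodes the zeta chain, the embryonic alpha-like chain. Their level is read here as a measure of the blood that each dissected pool held. In bulk tissue, fewer red cells and less RNA per red cell cannot be told apart.

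The regulatory sequence just before the start of these genes is shown for the 2 embryonic globins that the RefSeq promoter table of build GRCm38.p6 holds, and for Alas2 and Hemgn, a gene of haem synthesis and the member with no overlap between the groups outside the globins. Each line runs 5′ to 3′ on the strand of the gene and holds the 250 bases before the start. The windows are chr7:103853208-103853457 (minus strand) for Hbb-y, chr11:32276350-32276599 (plus strand) for Hba-x, chrX:150547167-150547416 (plus strand) for Alas2 and chr4:46404184-46404433 (minus strand) for Hemgn. Capitals mark exact matches, on either strand, to GATAA (the core that GATA factors such as Gata1 bind), CACCC (the core of the Klf1 site), TATAAA and CCAAT.
Hbb-y: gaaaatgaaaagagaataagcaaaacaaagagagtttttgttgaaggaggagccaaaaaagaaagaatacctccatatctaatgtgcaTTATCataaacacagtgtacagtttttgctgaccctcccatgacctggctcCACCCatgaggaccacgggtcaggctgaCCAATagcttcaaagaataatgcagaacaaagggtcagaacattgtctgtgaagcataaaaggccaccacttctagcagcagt
Hba-x: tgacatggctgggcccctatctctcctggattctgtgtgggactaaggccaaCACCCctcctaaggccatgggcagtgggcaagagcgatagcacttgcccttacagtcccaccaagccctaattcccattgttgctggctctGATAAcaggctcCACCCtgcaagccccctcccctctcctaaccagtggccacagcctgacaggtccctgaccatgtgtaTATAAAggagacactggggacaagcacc
Alas2: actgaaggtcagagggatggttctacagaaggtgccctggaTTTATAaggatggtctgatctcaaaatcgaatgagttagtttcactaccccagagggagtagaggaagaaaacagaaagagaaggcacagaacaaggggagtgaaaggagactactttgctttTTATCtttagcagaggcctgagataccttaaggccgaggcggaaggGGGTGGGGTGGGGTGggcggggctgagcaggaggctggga
Hemgn: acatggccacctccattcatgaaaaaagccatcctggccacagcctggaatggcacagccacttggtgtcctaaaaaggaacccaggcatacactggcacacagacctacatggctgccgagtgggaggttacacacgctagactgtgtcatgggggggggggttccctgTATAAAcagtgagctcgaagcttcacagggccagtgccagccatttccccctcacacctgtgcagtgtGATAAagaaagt

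The table held 7 of the 9 genes, and Hbb-bh1 and Slc4a1 had no entry. GATAA was found in 6 of these 7 windows, against 22.6% of the 32851 windows of the same length in the table, and CACCC in 6 of 7, against 52.0%. TATAAA was found in 3 of 7, against 12.4% of all windows, and CCAAT in 2 of 7, against 33.8%. Hba-x carried GATAA at 107 to 103 bases before the start, CACCC at 198 to 194 and at 95 to 91, and TATAAA at 28 to 23. Hbb-y carried GATAA on the other strand at 162 to 158, CACCC at 111 to 107 and CCAAT at 83 to 79. In Alas2 the 3 CACCC matches, all on the other strand, stood 40 to 26 bases before the start, side by side. Hemgn held GATAA 12 to 8 bases before the start and no CACCC. The motifs were chosen after the promoters were seen, so these shares are no test of enrichment. These matches describe letters, and the arrays did not measure binding.

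Intensities are the deposited values on a linear scale. On every array their mean, with 2% trimmed at each end, was 500. Differences are mutant minus wild type of mean log2(intensity + 16), with the standard error (SE) and p of limma, a linear model with moderated variances, fitted to all 22626 probe sets. An adjusted p is Benjamini-Hochberg adjusted over all of them, and a call needs an adjusted p under 0.05. The arrays had median intensities of 187 to 214 and correlated at 0.973 to 0.984 with each other, and the number of arrays limits the precision. In 18S ribosomal RNA, wild-type replicates 2 and 3 stood apart: the mean log2 signal of its 3 probe sets was 12.1 and 11.3 there, and 6.36 to 7.03 elsewhere. Background was taken as 61.5, the 95th percentile of control probe sets directed at bacterial RNA. Hoxb1 itself gave 341, 378 and 588 on the wild-type arrays, against 60.8, 35.3 and 50.03 on the mutant arrays, where every array lay below that level, at least 6.88-fold lower (limma adjusted p = 0.0695). The sources used here do not say which part of Hoxb1 the allele removes.

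None of the 15 probe sets passed the test, as 0 (0%) of all 22626 did, while 1303 (5.76%) had an unadjusted limma p under 0.05. Embryonic globin RNA was present at a high level in every pool of both genotypes, and its mean differed by a log2 difference of -0.0093 to 0.23. One member, Hemgn, had an unadjusted p under 0.05, lower in mutants, where 3.88% of all probe sets did so in that direction. Over the 15 probe sets 9 had a higher mean log2 level in mutants and 6 a lower one, with a median log2 difference of 0.092. For the 7 globin probe sets 5 were higher and 2 lower, with a median of 0.13. For the 8 others 4 were higher and 4 lower, with a median of -0.037. Over all probe sets 45.8% were higher and 54.2% lower, with a median of -0.021. The groups did not overlap in 1 member probe set that was higher in mutants (4.88% of all probe sets) and in 1 that was lower (7.08%).

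Hbb-bh1, which encodes the beta-H1 chain, was the embryonic globin with the largest difference, in each of its 3 probe sets. Probe set 1450736_a_at gave 11005, 9855 and 9273 on the wild-type arrays, against 11208, 11897 and 12126 on the mutant arrays. All 3 mutant arrays lay above all 3 wild-type arrays, but the nearest pair, mutant and wild-type replicate 1, stood close together. The log2 difference was 0.23 (SE 0.12; 95% interval -0.05 to 0.51; limma adjusted p = 0.833). Probe set 1437810_a_at gave 11835, 10522 and 9970.2 on the wild-type arrays, against 11198, 12269 and 13337 on the mutant arrays. Probe set 1437990_x_at gave 11027, 9348 and 9417 on the wild-type arrays, against 10314, 11201 and 12641 on the mutant arrays. In both, wild-type replicate 1 lay above mutant replicate 1, so the groups overlapped, and the log2 differences were 0.19 and 0.20 (SE 0.13 for each; limma adjusted p = 0.856 for each). The suffix of 1437990_x_at marks a probe set whose probes may also bind related transcripts, and the beta-like globins are close relatives, so its signal may not come from Hbb-bh1 alone.

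The lowest wild-type values of Hbb-bh1, in all 3 probe sets, were those of replicates 2 and 3, the arrays with high 18S signal. Without these 2 arrays, a setting chosen after seeing the data, 1 wild-type array was left, which is assumed to vary like the mutants. The log2 differences were then 0.048 for 1437810_a_at, 0.041 for 1437990_x_at and 0.093 for 1450736_a_at. With the 18S signal as a covariate they were 0.054, 0.041 and 0.10 (limma adjusted p = 1.00 for each). The wild-type array left, replicate 1, had the highest wild-type value in all 3 probe sets. High 18S signal was found on wild-type arrays only, so neither setting can tell its part from that of genotype or pool. That part was not tested. With 1 array left out, the log2 differences ran from 0.12 to 0.26 for 1437810_a_at, 0.12 to 0.27 for 1437990_x_at and 0.17 to 0.30 for 1450736_a_at.

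Hbb-y, which encodes the epsilon-y chain, had nearly the same level in both groups. Its probe set 1436823_x_at gave 13816.5, 12334 and 13056 on the wild-type arrays, against 12679.9, 12771 and 13474 on the mutant arrays. Its probe set 1436717_x_at gave 12615, 11487 and 12119 on the wild-type arrays, against 11485, 12369 and 12223 on the mutant arrays. Its probe set 1450621_a_at gave 11335, 10629.9 and 10781 on the wild-type arrays, against 10708, 11478 and 11338 on the mutant arrays. The groups overlapped throughout in all 3, and the log2 differences, with the probe sets in this order, were -0.0093, -0.0054 and 0.034 (SE 0.11, 0.11 and 0.10). Their 95% intervals together ran from 0.831-fold to 1.22-fold of wild type, so a change of Hbb-y larger than that lay outside the interval of each probe set. The suffix of 1436823_x_at and 1436717_x_at is that of probe sets that may also bind related transcripts, so their signal may not come from Hbb-y alone.

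Hba-x, which encodes the zeta chain, had 1 probe set, 1448716_at. It gave 12566, 12723 and 9939 on the wild-type arrays, against 12447, 12489 and 13482 on the mutant arrays. Wild-type replicate 3 lay apart below the other 5 arrays, and the other 2 wild-type arrays lay among the mutants. The log2 difference was 0.13 (SE 0.14; 95% interval -0.19 to 0.46; limma adjusted p = 0.890). With 1 array left out it ran from 0.017, without wild-type replicate 3, to 0.20, without wild-type replicate 2.

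**Figure D1:**
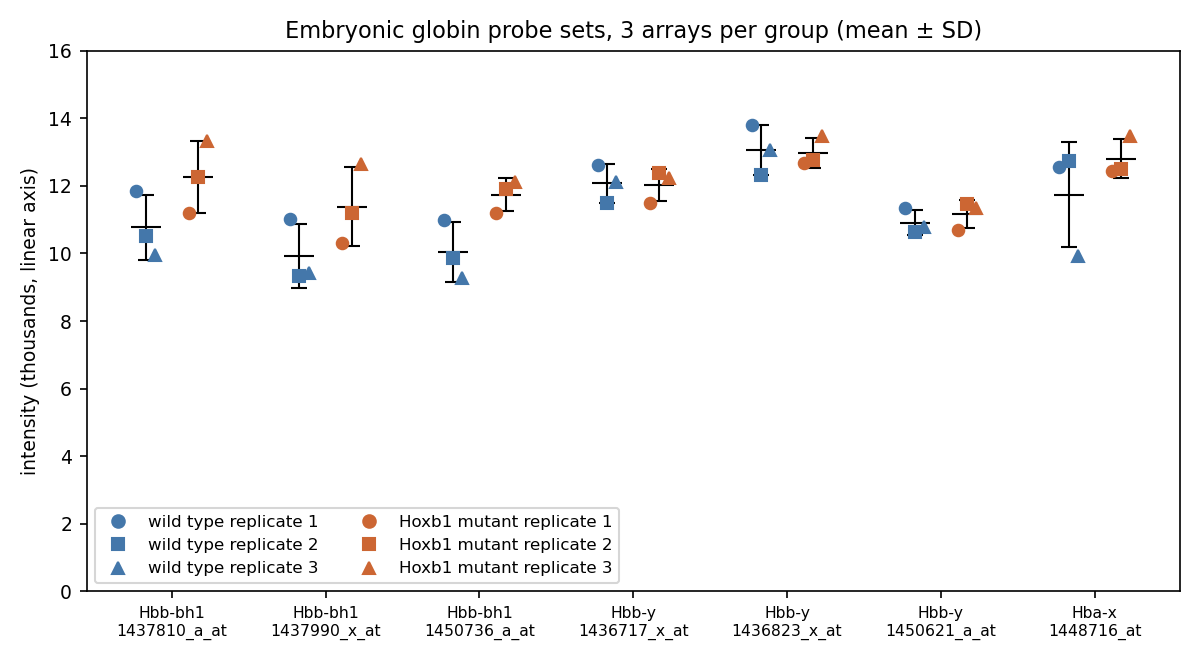
Intensity on a linear axis of the 7 embryonic globin probe sets on each array, with wild type in blue, Hoxb1 mutants in orange, the marker shape giving the replicate, and black bars for mean ± SD of 3 arrays. All values lie between 9273 and 13816.5, and the groups are separated only in the Hbb-bh1 probe set 1450736_a_at.

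All 7 globin probe sets read near the top of the range of the arrays. Their percentile among the probe sets of the same array lay between 99.2 and 99.8, and the highest intensity of any probe set was between 16868 and 19024 on the 6 arrays. This gives no order of transcript levels between genes, since probes differ in how strongly they bind. Between arrays of a group the 7 probe sets varied little, with a median within-group SD of 0.10 on the log2 scale, against 0.21 for all probe sets tested. Among the 130 probe sets at least as bright on average as the dimmest globin probe set, the median SD was 0.07. Their median log2 difference was 0.03, against 0.13 for the globins. Of these 130, which include the globins, 89 had a higher mean log2 level in mutants and 41 a lower one. Among the 7 globin probe sets 5 were higher and 2 lower. Whether the response of the probes to RNA was still linear at this level was not tested.

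Alas2 encodes the erythroid form of 5-aminolevulinate synthase, the enzyme that opens haem synthesis in red cells. Its probe set 1451675_a_at gave 361, 397 and 292 on the wild-type arrays, against 335, 366 and 450.4 on the mutant arrays. Wild-type replicate 3 was again the lowest array and mutant replicate 3 the highest, and the groups overlapped. The log2 difference was 0.13 (SE 0.17; 95% interval -0.27 to 0.53; limma adjusted p = 0.918). It was 0.0074 without wild-type replicate 3, 0.010 without mutant replicate 3 and 0.22 without wild-type replicate 2.

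Slc4a1 encodes band 3, the anion exchanger of the red cell membrane, and its 3 probe sets did not follow each other. Probe set 1416464_at gave 361, 467 and 283 on the wild-type arrays, against 302, 289.5 and 321 on the mutant arrays, a log2 difference of -0.24 (SE 0.19). Probe set 1434502_x_at gave 436, 307 and 400.2 on the wild-type arrays, against 266, 503 and 487 on the mutant arrays, a log2 difference of 0.092 (SE 0.27). Wild-type replicate 2 was the highest array in the former and the lowest of its group in the latter. The third, 1431743_a_at, gave 41.3, 4.81 and 61.6 on the wild-type arrays, against 12.1, 3.41 and 11.7 on the mutant arrays, above the bacterial 95th percentile on 1 of 6 arrays. Every mutant array lay below background, and no fold is given for it. Over the 6 arrays the correlation between pairs of these probe sets ran from -0.34 to 0.11, against 0.90 to 0.98 for Hbb-bh1 and 0.63 to 0.86 for Hbb-y.

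Hemgn encodes hemogen, a nuclear protein of haematopoietic cells, and was the member that differed most among those above background. Its probe set 1418199_at gave 370.2, 284 and 332 on the wild-type arrays, against 262, 194 and 250.001 on the mutant arrays. All 3 mutant arrays lay below all 3 wild-type arrays. The log2 difference was -0.46 (SE 0.16; 95% interval -0.84 to -0.08), with a limma adjusted p of 0.833, which missed the threshold. The difference kept its sign when any array was left out, at -0.56 to -0.34, and was -0.63 without wild-type replicates 2 and 3. In direction it was opposite to Hbb-bh1, Hba-x and Alas2.

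Gata1 and Klf1 encode the transcription factors that drive the erythroid programme, among them the globin and haem genes. Gata1 (1449232_at) gave 159.95, 122 and 145 on the wild-type arrays, against 193, 144 and 137 on the mutant arrays. Mutant replicate 1 was the highest array, and the other 2 mutant arrays lay within the range of wild type, for a log2 difference of 0.13 (SE 0.17; limma adjusted p = 0.912). Klf1 (1418600_at) gave 146, 231 and 166 on the wild-type arrays, against 211, 206 and 216 on the mutant arrays. The mutant arrays stood close together, with an SD of 4.64 against 44.8 in wild type, and wild-type replicate 2 lay above all of them. The log2 difference of Klf1 was 0.23 (SE 0.17; limma adjusted p = 0.862), and it was 0.40 without wild-type replicate 2 and 0.10 without wild-type replicate 1.

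Epor encodes the receptor for erythropoietin, through which erythroid precursors receive their survival signal. Its probe set 1423344_at gave 235, 349 and 271 on the wild-type arrays, against 266, 235 and 247 on the mutant arrays. Wild-type replicate 2 stood above the other 5 arrays, which lay between 235 and 271. The log2 difference was -0.17 (SE 0.16; limma adjusted p = 0.884), and it turned to 0.077 without wild-type replicates 2 and 3.

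**Figure D2:**
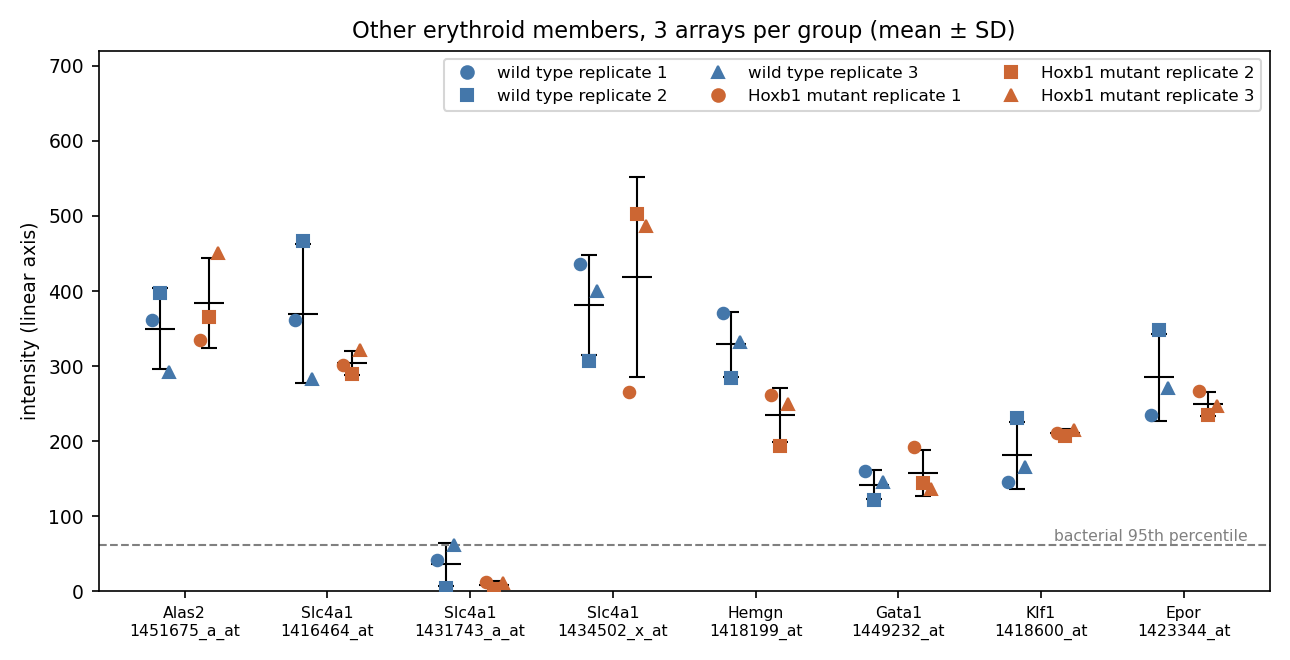
Intensity on a linear axis of the 8 probe sets of the other erythroid genes on each array, with wild type in blue, Hoxb1 mutants in orange, the marker shape giving the replicate, and black bars for mean ± SD of 3 arrays. The groups are separated only for Hemgn, at 284 to 370.2 in wild type and 194 to 262 in mutants, and the Slc4a1 probe set 1431743_a_at lies below the dashed line at 61.5, the 95th percentile of bacterial probe sets, on all arrays but wild-type replicate 3, at 61.6.

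**Figure D3:**
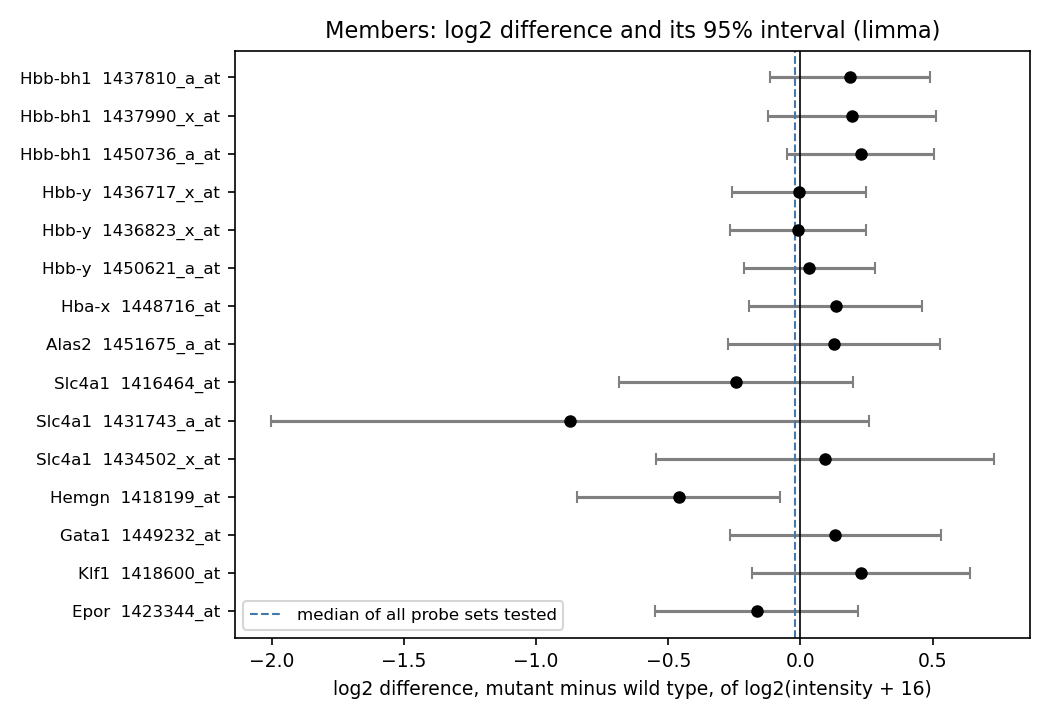
Points give the log2 difference, mutant minus wild type, of each member probe set and bars its 95% interval from limma, with the dashed line at the median of all probe sets tested, -0.02. Of the 15 intervals, that of Hemgn, from -0.84 to -0.08, leaves out 0, before adjustment for the number of probe sets.

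A globin level for each array was taken as the mean log2 intensity of the brightest probe set of each of the 3 embryonic globins. It was 13.64, 13.53 and 13.41 on the wild-type arrays, against 13.56, 13.61 and 13.72 on the mutant arrays, a mean of 13.53 ± 0.11 (SD, n = 3) against 13.63 ± 0.077 (SD, n = 3). The highest array, mutant replicate 3, stood 1.23-fold above the lowest, wild-type replicate 3, and the groups overlapped. Alas2, which was not used for this level, correlated with it at r = 0.82 over the 6 arrays. With the single globin probe sets its r ran from 0.047, for Hbb-y 1436717_x_at, to 0.88, for Hba-x. The Slc4a1 probe set 1434502_x_at had an r of 0.44 with the globin level, and of 0.89, 0.60 and 0.88 with Hbb-y 1436717_x_at, 1436823_x_at and 1450621_a_at. The r with the globin level was 0.073 for Slc4a1 1416464_at, -0.44 for Slc4a1 1431743_a_at, 0.17 for Klf1, 0.021 for Gata1, -0.34 for Hemgn and -0.49 for Epor. These are descriptions over 6 arrays that share their scaling. By their suffix, 1434502_x_at, 1436717_x_at and 1436823_x_at, the last of which enters the globin level, may also bind related transcripts. Among pairs of globin probe sets of different genes, r had a median of 0.55, and 14 of 15 pairs were above 0. Between a globin and another member the median was -0.052, and 27 of 56 pairs were above 0.

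The genes that are no member and whose pattern was most like the globin level were Apmap, Eci2, Qrsl1, Slc2a3, Rhag, Tmem185a, Hoga1 and Hmmr, with r of 0.973 to 0.989 over the 6 arrays. They were the best of 15763 probe sets with 1 gene symbol and a mean above background, of which 128 had an r above 0.9, and were picked for this likeness. Rhag encodes the Rh-associated glycoprotein of the red cell membrane, and was also on the list of membrane genes. It gave 93.6, 79.04 and 71.2 on the wild-type arrays, against 87.9, 93.2 and 100.4 on the mutant arrays, a log2 difference of 0.18 (SE 0.13; limma adjusted p = 0.857). Slc2a3, a glucose transporter, gave 195, 152 and 130.3 on the wild-type arrays, against 172, 204 and 236 on the mutant arrays.

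**Figure D4:**
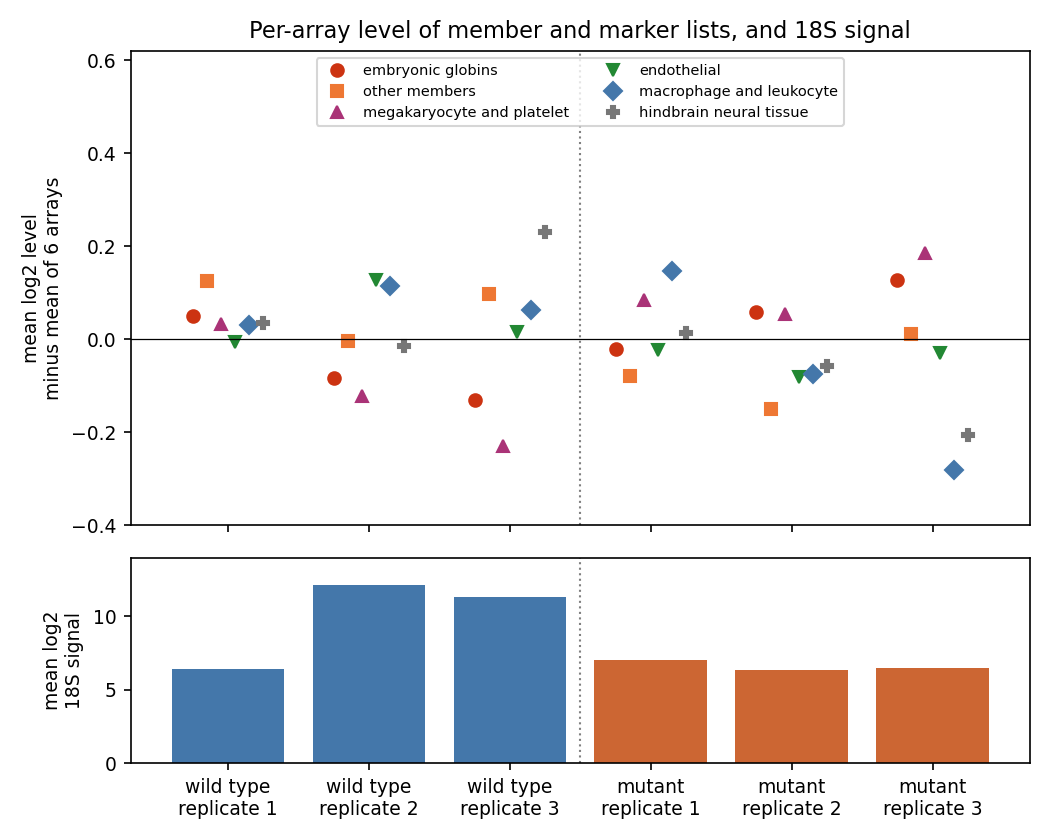
The upper panel gives, for each array, the mean log2 level of a list minus its mean over the 6 arrays, for the 7 embryonic globin probe sets, the 8 probe sets of other members and 4 lists of marker genes. The lower panel gives the mean log2 18S signal as bars from 0, at 12.1 and 11.3 on wild-type replicates 2 and 3, where the globins lay 0.08 and 0.13 below their mean.

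Other erythroid genes were followed through 6 lists, with the brightest probe set standing for each gene. Of 124 measured genes 0 passed the test, 56 had a higher and 68 a lower mean in mutants, and the median log2 difference was -0.023, against -0.021 over all probe sets. An unadjusted limma p under 0.05 was reached by 6, all lower in mutants, and by 0 higher ones, against 3.88% and 1.88% of all probe sets. Adult globin genes with a probe set of their own were dim, and none of the 3 was above background on every array. The 4 probe sets listed with several globin genes, described at the end, were brighter. Their wild-type means were 608 to 12662 and their log2 differences 0.035 to 0.40. Their signal cannot be assigned to a single gene, so the dim probe sets alone do not give the level of adult globin RNA. Hba-a2, an adult alpha-globin gene, gave 98.6, 202 and 86.8 on the wild-type arrays, against 73.5, 50.03 and 59.4 on the mutant arrays (log2 difference -0.84, SE 0.30; limma adjusted p = 0.833). Probes of Hba-a2 may bind its near-identical partner Hba-a1, whose own probe set gave 63.1 ± 27.4 in wild type and 60.8 ± 39.9 in mutants (SD, n = 3). Hbb-b2 gave 83.04 ± 41.9 in wild type and 61.0 ± 13.95 in mutants.

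Genes of haem synthesis and iron uptake had a median log2 difference of -0.0098 over 24 measured genes, with 11 higher and 13 lower. Ppox, which encodes protoporphyrinogen oxidase, gave 386, 359 and 448 on the wild-type arrays, against 342, 309 and 227 on the mutant arrays (log2 difference -0.44, SE 0.18; limma adjusted p = 0.833). The 3 brightest of the list were Slc25a39, a mitochondrial carrier, Tmem14c, which serves porphyrin transport, and Tfrc, the transferrin receptor through which red cell precursors take up iron. Their log2 differences were -0.075, 0.017 and 0.066 (SE 0.16, 0.11 and 0.18). Genes of the red cell membrane and its skeleton had a median of 0.0022 over 25 genes, with 0 at an unadjusted limma p under 0.05. Its brightest members, Cd24a, Tpm3 and Add1, are also made by many other cells and had log2 differences of 0.0022, -0.028 and -0.060. Genes of red cell enzymes and maturation had a median of 0.013 over 29 genes, also with 0 at an unadjusted p under 0.05. Prdx2, an abundant peroxidase of red cells, gave 7154 ± 364 in wild type and 7316 ± 207 in mutants (SD, n = 3), and Gpx1 and Ptdss2 had log2 differences of 0.050 and 0.076.

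Erythroid transcription factors had a median of 0.0058 over 27 genes, with 2 lower at an unadjusted limma p under 0.05, as were 3.88% of all probe sets. E2f4, a cell cycle regulator needed for red cell maturation, gave 423, 507 and 480 on the wild-type arrays, against 328, 352 and 352 on the mutant arrays (log2 difference -0.43, SE 0.12; limma adjusted p = 0.783). Tcf3, a partner of Tal1 that most tissues express, gave 2073, 2357 and 2589.7 on the wild-type arrays, against 1510.4, 1824 and 1887 on the mutant arrays (-0.42, SE 0.14; limma adjusted p = 0.833). Bach1, a haem-regulated repressor, and Ldb1, which bridges Gata1 complexes, had log2 differences of 0.045 and -0.20. In the list of erythropoietin and cytokine signalling, 13 of 17 genes had a lower mean in mutants, with a median of -0.14. An unadjusted limma p under 0.05 was reached by 2, both lower. Of all probe sets 54.2% had a lower mean, and 3.88% were lower at that p. Socs3, a feedback inhibitor of cytokine receptors, gave 117, 149 and 187 on the wild-type arrays, against 73.6, 94.2 and 105 on the mutant arrays (-0.63, SE 0.19; limma adjusted p = 0.833). Stat5a, which carries the signal of Epor to the nucleus, was at or near background, with every mutant array below 61.5 and wild type at 61.2 to 68.5, at least 1.05-fold higher in wild type. Ptpn11, Gab1 and Pim1, the brightest of the list, had log2 differences of 0.080, -0.0081 and -0.17. The limma adjusted p of every gene in these 6 lists lay between 0.783 and 1.00.

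Markers of the other cells in blood and vessel were low to moderate in both groups. Of the megakaryocyte and platelet list 6 of 8 genes were measured, and their summed intensity was 1201 to 1511 in wild type and 1418 to 1551 in mutants. By mean log2 level, the list was higher on every mutant array than on any wild-type one, with a difference of 0.21. This mean includes Gp9, with a log2 difference of 0.94. Pf4, platelet factor 4, gave 552 ± 108 in wild type and 608 ± 54.9 in mutants (SD, n = 3), and Itga2b and Gp5, integrin and glycoprotein of platelets, had log2 differences of -0.078 and -0.037. Gp9, another platelet glycoprotein, gave 26.0, 25.2 and 25.4 on the wild-type arrays, all below background, against 29.5, 77.2 and 102 on the mutant arrays. Mutant replicate 1 was thus below background too. The mutant mean was at least 1.28-fold higher (limma adjusted p = 0.833). The endothelial list, all 10 genes measured, summed to 3048 to 3282 in wild type and 2980.4 to 3251 in mutants. By mean log2 level it was lower on every mutant array than on any wild-type one, with a difference of -0.090. Its brightest members Cldn5, Emcn and Esam had log2 differences of 0.050, 0.26 and -0.16. The macrophage and leukocyte list, all 11 measured, summed to 1963 to 2107 in wild type and 1513 to 2302 in mutants. Csf1r, the receptor that marks macrophages, gave 501, 579.9 and 495 on the wild-type arrays, against 666, 390.3 and 341 on the mutant arrays, so mutant replicate 3, the array with the most globin signal, had the least Csf1r. Fcgr3, an Fc receptor of macrophages, was lower in mutants at 74.6 ± 15.4 against 114 ± 18.9 (limma adjusted p = 0.833). The haematopoietic progenitor list summed to 1898 to 2099.6 in wild type and 1887 to 2181 in mutants, and Kit, Cd34 and Lmo2 had log2 differences of -0.19, -0.021 and 0.23. Adgre1 and Tyrobp of the macrophage list had 0.029 and -0.048. The mean log2 levels of the macrophage and progenitor lists overlapped between the groups. No marker list held a gene past the adjusted threshold.

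The tissue itself was checked against its markers. All 9 measured genes of the hindbrain list and all 8 of the list for mesenchyme, crest and branchial arch were above background on every array, and markers of both kinds of tissue named in the labels were thus found in every pool. Over all probe sets 54.2% had a lower mean in mutants, with a median log2 difference of -0.021. Of the hindbrain genes 8 of 9 had a lower mean in mutants, with a median log2 difference of -0.17, and of the mesenchyme list 8 of 8, with a median of -0.18. Nes, Stmn2 and Isl1, the brightest of the former, had -0.17, -0.19 and -0.16, and Prrx1, Pdgfra and Col3a1 of the latter -0.014, -0.026 and -0.090. Sox10 of that list, a factor of the neural crest, gave 460.3 ± 36.2 in wild type and 345 ± 33.1 in mutants (limma adjusted p = 0.833). The mean log2 level of the mesenchyme list was lower on every mutant array than on any wild-type one. Relative to its mean over the arrays it was -0.12 to -0.076 in mutants and 0.011 to 0.20 in wild type. By array, the mean log2 level of the hindbrain list was highest on wild-type replicate 3, 0.23 above its mean, and lowest on mutant replicate 3, 0.21 below it. On the same arrays the globins stood 0.13 below and 0.13 above theirs. Their part in each other's values was not tested.

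**Figure D5:**
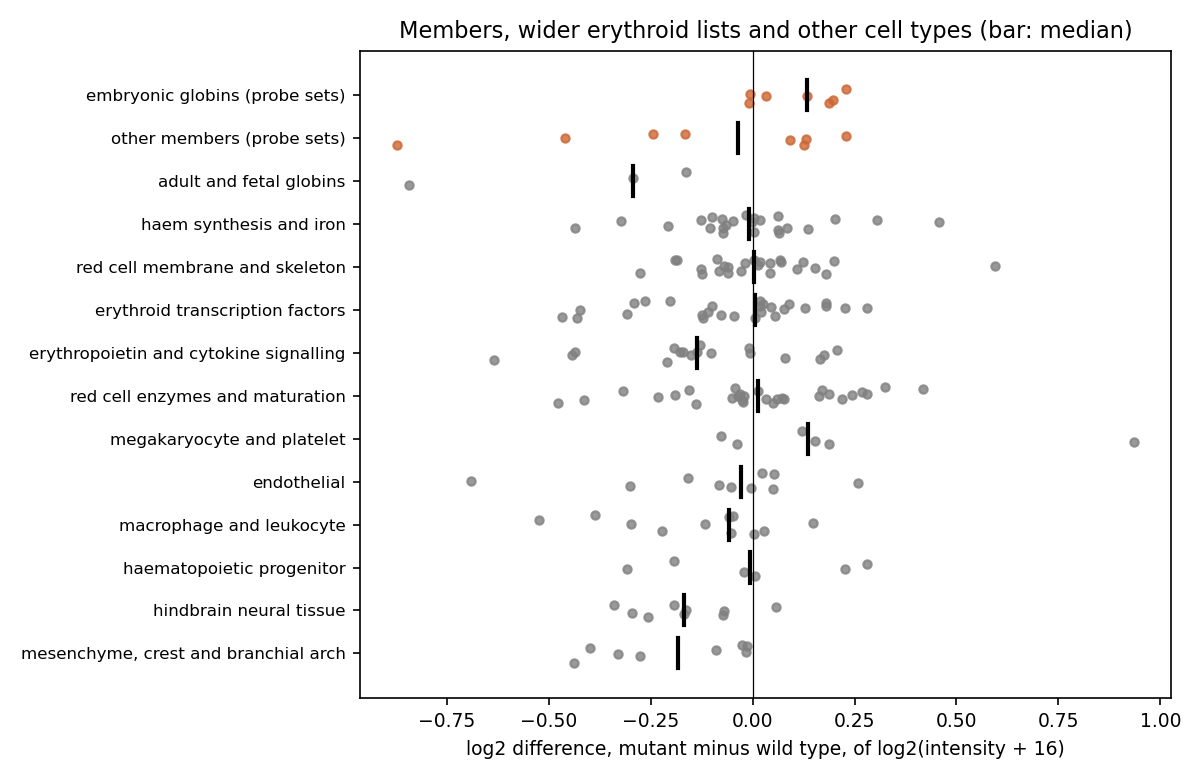
Each point is the log2 difference, mutant minus wild type, of a probe set (members, orange) or of a gene's brightest probe set (lists, grey), and each black bar is the median of its row. The embryonic globins have a median of 0.13, the wider erythroid lists lie around 0 apart from adult globins and cytokine signalling, and the hindbrain and mesenchyme lists have medians of -0.17 and -0.18.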

How the data were processed

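Affymetrix mouse 430A arrays were hybridised with RNA of 3 wild-type and 3 Hoxb1 mutant pools. The deposited table holds an intensity for each probe set on each array, linear and already scaled per array, as its values show. The submitters' processing notes name affy, and the sources used here do not name the expression algorithm or its background correction. No test used the 64 control probe sets. Of the 22626 tested, 20380 name 1 gene, 691 several and 1555 none. Symbols were updated by Entrez identifier for 20351 through RefSeq's GRCm38.p6 table.

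From the deposited intensity, log2(intensity + 16) was compared in limma 3.58.1 (R 4.3.3; lmFit, eBayes with default settings, 6 arrays, 2-sided, no covariates). The step was tested on simulated data. Background is the 95th percentile of 27 bacterial probe sets. For a fold given as at least a value, arrays below background were raised to it. Intervals of differences are limma's, unadjusted.

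The members and lists were chosen with earlier results of these data known, and the motifs after the promoters were seen. Named were all members, members of lists with an unadjusted p under 0.05, the 3 brightest of each list, Hoxb1, and the 8 genes most alike. Alternatives were quantile normalization, median centring, a low filter, array weights, pseudocounts of 1 and 64, a block for the replicate number, a robust eBayes with trend, 1 probe set per gene and leaving out each array. The 18S covariate and the fit without 2 arrays were added after seeing the data.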

Additional observations from a re-analysis of the deposited data

Results flagged for a closer look

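Of 4 probe sets listed with several globin genes, which the choice of members leaves out, 1 lay higher on every mutant array than on any wild-type array, as did 4.88% of all probe sets tested. This probe set, 1428361_x_at, gave 12860.1, 12752 and 12373 on the wild-type arrays, against 13840.5, 14012 and 14036 on the mutant arrays, and its lowest mutant value, 13840.5, stood above the highest wild-type one. Its log2 difference was 0.14 (SE 0.10), with a limma adjusted p of 0.856. The other 3 overlapped between the groups, and their log2 differences were 0.035, 0.40 and 0.037 (SE 0.11, 0.27 and 0.13).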

How the results depend on the processing

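Over 17 alternatives, 2 of them chosen after seeing the data, 248 values of member probe sets were recomputed, of which 227 kept their direction and 0 reached an adjusted limma p under 0.05. All 3 probe sets of Hbb-bh1, the probe sets of Hba-x, Alas2, Hemgn and Klf1, and 2 of the 3 of Slc4a1 kept their direction in every setting in which they were fitted. Over all probe sets limma called 0 as fitted, and 3 with quantile normalization, 4 with median centring, 2 with the low filter, 3 with trend and robust settings and 4 with array weights, none of them a member. The number with an unadjusted p under 0.05 was 2093 with array weights and 1059 to 1975 with 1 array left out, against 1303 of 22626. With 1 probe set per gene it was 727, out of the smaller number of 12393 probe sets.

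The median log2 difference of the members, 0.092, ran from 0.010 to 0.097 when 1 array was left out, and was -0.0042 with the 18S covariate and -0.021 without wild-type replicates 2 and 3. That of the globins, 0.13, ran from 0.025 to 0.19 when 1 array was left out, and was 0.026 without those 2 arrays. The lowest value, 0.025, was that without wild-type replicate 3.

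Values that turned were mostly near 0. For Hbb-y, 1436717_x_at gave 0.048 with median centring and 0.0095 with array weights, and -0.041 to 0.027 with 1 array left out. 1436823_x_at gave 0.044 with median centring and -0.050 to 0.032 with 1 array left out. 1450621_a_at gave -0.0033 with quantile normalization, -0.024 with the 18S covariate and -0.021 without the 2 arrays. For Slc4a1, 1434502_x_at gave -0.18 with the 18S covariate, -0.11 without the 2 arrays and -0.063 to 0.38 with 1 array left out. For Gata1 the values were -0.0042 with the covariate, -0.029 without the 2 arrays and -0.0066 to 0.22 with 1 array left out, and for Epor 0.091 with the covariate and 0.077 without the 2 arrays. The causes were not tested.

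Samples with the same replicate number did not deviate together, with correlations of 0.053, -0.017 and 0.045 over probe sets. With the replicate block the medians were 0.092 for the members and 0.13 for the globins, and 0 probe sets passed. An unadjusted limma p under 0.05 was reached by 2 of the 15 member probe sets instead of 1, and by 1361 of all 22626. Leaving out 1 array gave 0 to 3 such member probe sets, and 1059 to 1975 among all 22626.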
